A study of Homo sapiens with 2 samples.

Results

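The genes described here are 41 members of the Hippo-YAP and AP-1 pathways, 25 of the first and 16 of the second, out of 20176 annotated protein-coding genes. They were listed by name, and every SMARCA4 region within 1 kb of the transcription starting site (TSS) of any transcript of a member was taken as a promoter region, whether or not it is the promoter that the cells use. Regions elsewhere in the body of a member or within 20 kb of it were then added. The data are 2 FLAG-SMARCA4 ChIP-seq libraries. The first is from parental TOV21G, a line of ovarian clear cell carcinoma with mutated *ARID1A*, and the second from an EZH2 inhibitor-resistant (EIR) clone, number 3, that was picked after TOV21G cells were grown in the EZH2 inhibitor GSK126 at 5, 10, 15 and then 20 μM. In both, the endogenous *SMARCA4* gene carried a FLAG tag, single colonies of tagged cells were used, and chromatin was precipitated with an anti-Flag antibody. Whether the clone was in GSK126 at harvest is not given in the sources used here. The deposited lists hold only regions that differed between the libraries, 10792 higher in parental cells (parental-higher) and 2104 higher in the clone (EIR-higher). A gene without a region may be bound equally in both or not at all. Expression was not analysed here, so that the line was not checked against its markers.

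In the Hippo pathway the kinases MST1 and MST2 activate LATS1 and LATS2, which phosphorylate the coactivators YAP and TAZ and keep them out of the nucleus. When the kinases are inactive, YAP and TAZ bind TEAD factors on DNA and activate genes of growth and matrix, among them *CCN1* and *CCN2*. AP-1 factors are dimers of FOS, JUN, ATF, BATF and MAF family proteins with a basic leucine zipper (bZIP), often bind the same enhancers as TEAD factors, and can recruit the SWI/SNF complex of which SMARCA4 is a catalytic subunit.

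The promoter of *CCN2*, a textbook target of YAP and TEAD, shows the kind of sequence that lay in these regions. The 150 bases before its canonical TSS lie inside a parental-higher region and hold the letters GGAATG, the core bound by TEAD factors, at -104 and -95 bp. All sequences are of the GRCh37 reference, are written 5′ to 3′ on the strand of the gene, and show the matched letters of 1 motif in capitals.
CCN2, chr6:132272513-132272662, minus strand: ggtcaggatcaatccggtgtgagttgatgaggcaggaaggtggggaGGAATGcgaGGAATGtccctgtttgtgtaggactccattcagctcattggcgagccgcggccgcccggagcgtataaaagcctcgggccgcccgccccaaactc

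The same 6 letters, or their reverse complement CATTCC, lay in the promoter regions of *YAP1*, *WWC2*, *LATS2*, *FOSL2* and *JDP2*. These are shown because they stand for the coactivator, a scaffold, a kinase and AP-1 members. *TEAD3*, *TEAD4* and *WWTR1* are shown because 2 matches lay side by side there. In each line the match in capitals is the one at the centre, and a neighbouring match is in lower case.
YAP1, chr11:101980991-101981046, plus strand: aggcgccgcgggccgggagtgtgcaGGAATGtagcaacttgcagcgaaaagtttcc
WWC2, chr4:184020163-184020218, plus strand: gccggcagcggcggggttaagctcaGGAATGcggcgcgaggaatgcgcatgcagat
LATS2, chr13:21634257-21634312, minus strand: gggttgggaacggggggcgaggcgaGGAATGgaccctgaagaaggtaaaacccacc
FOSL2, chr2:28614810-28614865, plus strand: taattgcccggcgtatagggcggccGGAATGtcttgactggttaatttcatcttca
JDP2, chr14:75894636-75894691, plus strand: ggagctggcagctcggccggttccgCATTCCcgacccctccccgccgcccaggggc
TEAD3, chr6:35464766-35464793, minus strand: ctcattccgcaCATTCCggccagccccc
TEAD4, chr12:3068551-3068578, plus strand: attccagccctCATTCCgcgcattccag
WWTR1, chr3:149293431-149293486, minus strand: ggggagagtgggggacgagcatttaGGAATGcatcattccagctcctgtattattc

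AP-1 dimers bind TGACTCA, and dimers with ATF proteins also bind the cAMP response element (CRE) TGACGTCA. The first, or its reverse complement TGAGTCA, was found in promoter regions of *FOSL1*, *MAFG*, *MAFK*, *TEAD4* and *STK3*. The second was found in those of *JUND*, *MAFF* and *WWC1*. The sites in AP-1 genes are shown, with the matched letters in capitals, because these genes encode members of the dimers that bind such letters.
FOSL1, chr11:65667843-65667871, minus strand: cacggcgcgggTGAGTCAgaacccagcag
MAFG, chr17:79884818-79884874, minus strand: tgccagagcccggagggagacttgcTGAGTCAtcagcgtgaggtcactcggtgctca
MAFK, chr7:1570589-1570645, plus strand: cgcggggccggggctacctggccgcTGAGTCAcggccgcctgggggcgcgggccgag
JUND, chr19:18392600-18392657, minus strand: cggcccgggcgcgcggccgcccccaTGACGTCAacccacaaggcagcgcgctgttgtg
MAFF, chr22:38597936-38597965, plus strand: ggccgggtcggTGACGTCAccgcatgactg

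Of the 23 members with a listed promoter region, all but 1 had lower SMARCA4 tags there in the EIR library. This direction was shared by most genes. Taking 1 region per gene, it held for 4654 of the 4958 protein-coding genes with a promoter region. Of the 41 members, 22 (53.7%) had a parental-higher promoter region, against 23.2% of all protein-coding genes. An EIR-higher promoter region was found at 1 member, *AMOTL2* (2.44%), against 1.96% of all protein-coding genes. Elsewhere in the gene body or its flanks, 27 members (65.9%) had a parental-higher region against 26.1% of all genes, and 3 members (7.32%), *WWC1*, *JUNB* and *MAFG*, had an EIR-higher region against 7.05%. A region of either list was thus present at 30 members, and 11 (26.8%) had none, while 43.6% of all protein-coding genes had one. Among the Hippo-YAP genes, 14 of 25 had a parental-higher promoter region and 19 had one elsewhere. Among the AP-1 genes, 8 of 16 had the first and 8 had the second. The members have a median length of 36.2 kb and 6 distinct TSSs, against 27.2 kb and 5 for all genes, and the Hippo-YAP genes are longer, at 88.6 kb, than the AP-1 genes, at 12.9 kb. Longer genes with more TSSs offer more room for a region, and the part of this in the counts was not tested.

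**Figure D1:**
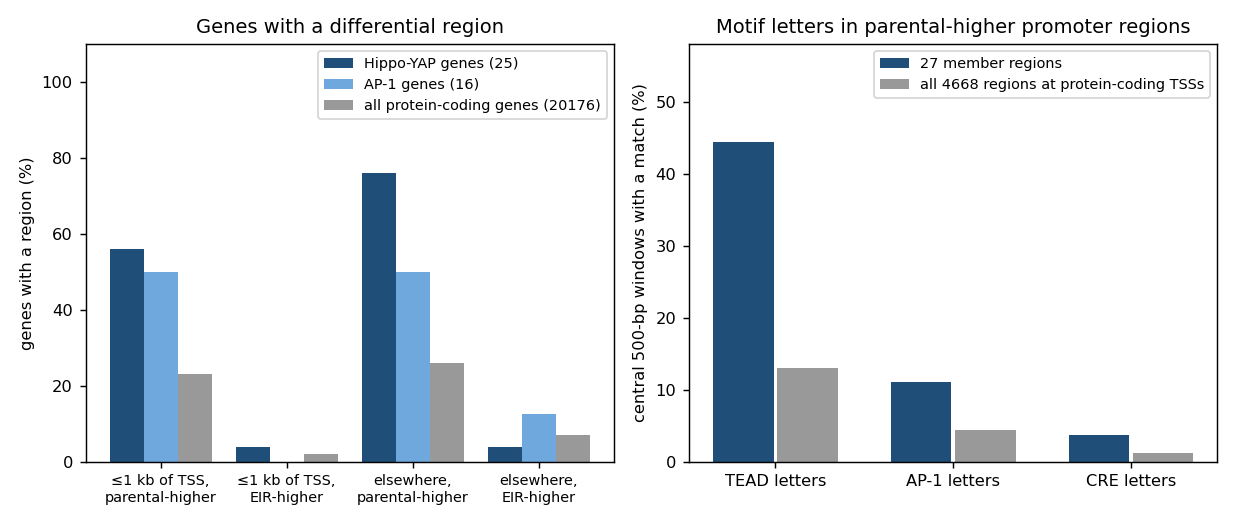
Share of genes with a differential SMARCA4 region (left) and share of promoter regions with motif letters (right). Left bars give the percent of the 25 Hippo-YAP genes, the 16 AP-1 genes and all protein-coding genes with a region of each list, within 1 kb of a TSS or elsewhere in the body or 20 kb around it. Right bars give the percent of central 500-bp windows of parental-higher promoter regions with at least 1 match on either strand. Both groups of members stand above all genes for parental-higher regions, and the bars for EIR-higher regions are low in every group.

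The libraries held 25.6 M (parental) and 35 M (EIR) tags, and 1 EIR tag counts as 0.733 scaled tag, so that scaled tags are on the parental scale. A tag is an aligned read, and the fold is parental tags over scaled EIR tags, or the reverse for an EIR-higher region. All intervals given are at 95% and follow the exact Clopper-Pearson method for the tag counts. They cover counting error only, compare the 2 libraries and not the conditions, and excluded 1 at all 81 member regions, which were selected for a difference. With 1 library per condition no spread between replicates was measured.

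Of the coactivators and TEAD factors at the end of the Hippo pathway, 5 of 6 (83.3%) had a parental-higher promoter region. The share of all protein-coding genes was 23.2%. This group and those that follow hold few genes, and differences from that share were not tested. At *YAP1*, which encodes YAP, the region chr11:101980976-101981904 covered the TSS and the start of exon 1, with 95 tags in parental cells and 43.2 scaled tags in the EIR clone. The fold was 2.20 (95% interval 1.57 to 3.09, Poisson *P* of HOMER 7.55e-12). It lies from -202 to 726 bp of the canonical TSS. *WWTR1*, which encodes TAZ, had none at its canonical TSS. Its promoter regions lay at alternative TSSs within the gene, 1 in intron 2 with 40 parental tags and 18.3 scaled EIR tags (fold 2.18, 1.29 to 3.75) and 1 in intron 4 with 17 and 3.7 (fold 4.64, 1.64 to 16.1). The second has the largest fold and the widest interval of the promoter regions.

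*TEAD1* and *TEAD4*, DNA-binding partners of YAP and TAZ, had some of the strongest regions. At *TEAD1* the library of parental cells held 116 tags and that of the clone 33.0 scaled tags (chr11:12695973-12697309, fold 3.52, 2.47 to 5.08), with the centre in intron 1. At *TEAD4* the values were 164 and 61.6 (chr12:3067863-3069685, fold 2.66, 2.04 to 3.51), which is rank 106 by parental tags among the 10792 parental-higher regions. *TEAD3* had a weaker region of 41 and 19.1 (fold 2.15, 1.28 to 3.66), and *TEAD2* had no region of either list.

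In the kinase core, 2 of 7 members (28.6%) had a parental-higher promoter region, near the 23.2% of all protein-coding genes. At *LATS2*, a kinase that phosphorylates YAP and TAZ, the region lay 287 bp downstream of the canonical TSS, with its centre in intron 1, and held 149 parental tags and 72.6 scaled EIR tags (chr13:21634060-21635438, fold 2.05, 1.58 to 2.68). *STK3*, which encodes MST2, had 3 promoter regions at different TSSs, with 63 and 31.5 (fold 1.999, 1.34 to 3.02), 59 and 28.6 (fold 2.06, 1.35 to 3.18) and 46 and 15.4 (fold 2.99, 1.75 to 5.27). The first covered the canonical TSS, and the last covered the TSS of a non-coding gene and lay within 1 kb of *OSR2*. The kinase *LATS1*, the scaffold *SAV1* and the kinase adaptors *MOB1A* and *MOB1B* had regions only elsewhere, all parental-higher, and *STK4*, which encodes MST1, had none.

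Of the 7 upstream and junction proteins, 4 (57.1%) had a parental-higher promoter region and 1, *AMOTL2* (14.3%), an EIR-higher one. The shares of all protein-coding genes were 23.2% and 1.96%. *NF2*, a membrane-linked activator of the kinases, had 39 parental tags against 16.1 scaled EIR tags in intron 1 (chr22:30000309-30000977, fold 2.42, 1.40 to 4.28). *WWC1* (KIBRA) and its paralog *WWC2*, scaffolds of the kinases, had 113 against 36.7 (fold 3.08, 2.19 to 4.39) and 108 against 48.4 (fold 2.23, 1.63 to 3.08) at their canonical TSSs. *WWC1* had a weaker promoter region at an internal TSS in intron 1, with 26 against 7.3 (fold 3.55, 1.66 to 8.24). *AJUBA*, a LIM protein that inhibits LATS kinases, had 107 against 66.0, the smallest promoter fold of the members, 1.62 (1.21 to 2.17). *AMOTL2*, a junction protein that binds YAP, ran the other way, with 6 parental tags and 18.3 scaled EIR tags in exon 3 (chr3:134086239-134086739, fold 3.05, 1.22 to 9.10). That region lies 556 bp from an alternative TSS and 6550 bp into the gene from the canonical one. It was no promoter region when only protein-coding transcripts or only the 5′ end of each gene were used. *AMOTL1* had a region only elsewhere and *AMOT* none.

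Of the VGLL proteins, which bind TEAD factors in competition with YAP, *VGLL4* had a strong region at an alternative TSS, 74655 bp upstream of the canonical one, with 147 parental and 67.4 scaled EIR tags (fold 2.18, 1.67 to 2.86). *VGLL3* had none. Of the YAP target genes, *CCN1* had 59 and 22.0 (chr1:86046528-86047410, fold 2.68, 1.70 to 4.31). *CCN2*, with the sequence shown above, had 47 and 20.5 (chr6:132271874-132272678, fold 2.29, 1.40 to 3.80), in a region that also covers the TSS of the non-coding *LINC01013*. *ANKRD1*, a target in muscle and other cells, had no region within 20 kb.

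**Figure D2:**
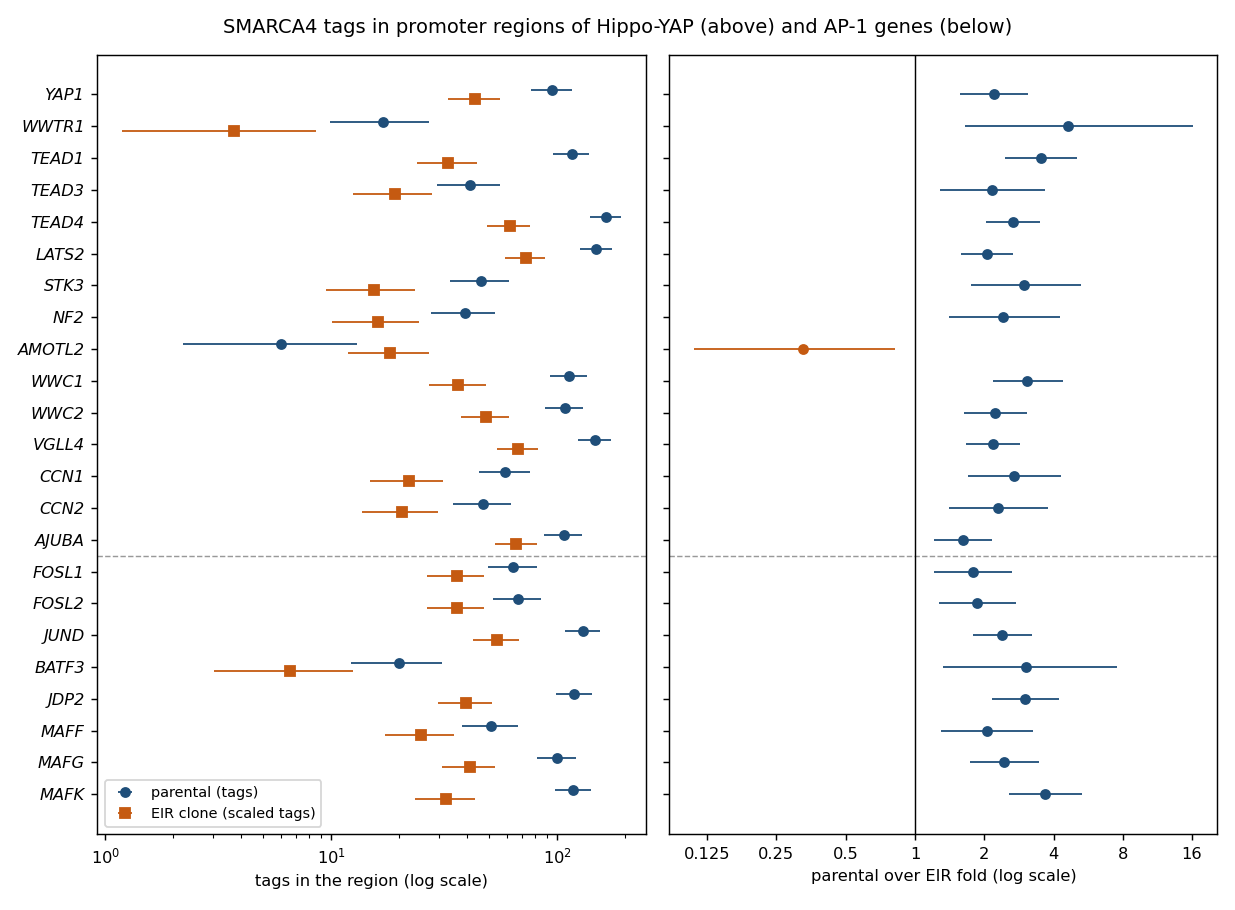
SMARCA4 tags at the promoter regions of 23 members, with 1 region per gene, chosen by its lowest P value. The left panel gives parental tags (circles) and scaled EIR tags (squares) on a log scale with exact Poisson 95% intervals, and the right panel the parental over EIR fold with its exact 95% interval. Members above the dashed line are Hippo-YAP genes and those below it AP-1 genes. All members but *AMOTL2* lie to the right of 1, between 1.62 and 4.64.

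Among the AP-1 genes, 2 of 4 FOS family genes (50%) and 1 of 3 JUN family genes (33.3%) had a parental-higher promoter region. In the group of ATF, BATF and JDP2, 2 of 6 (33.3%) had one. The share of all protein-coding genes was 23.2%. *FOSL1* and *FOSL2*, which encode FRA1 and FRA2, had 64 tags against 35.9 scaled tags (chr11:65667473-65667973, fold 1.78, 1.21 to 2.64) and 67 against 35.9 (chr2:28614595-28615401, fold 1.87, 1.27 to 2.75). These were, after *AJUBA*, the smallest promoter folds. *FOS* and *FOSB*, the immediate early members of the family, had no region. *JUND* had 130 against 54.2 over its TSS and single exon (chr19:18391159-18392929, fold 2.40, 1.79 to 3.23). *JUN* had no region. *JUNB* had none within 1 kb, but one 1146 bp upstream with 59 against 30.8 (fold 1.92, 1.27 to 2.92).

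All 3 small MAF genes, which encode bZIP proteins without an activation domain, had a parental-higher promoter region, against 23.2% of all protein-coding genes. *MAFK* had 118 parental tags and 32.3 scaled EIR tags (chr7:1569711-1571273, fold 3.66, 2.57 to 5.30), with the smallest *P* value of the member regions, 2.96e-31. *MAFG* had 100 and 41.0 (fold 2.44, 1.74 to 3.44). *MAFF* had 51 and 24.9 (fold 2.05, 1.30 to 3.26) in intron 1 and 20 and 5.9 (fold 3.41, 1.44 to 8.95) just upstream, and the second region holds the CRE shown above. Of the ATF, BATF and JDP2 group, *JDP2*, which encodes a repressor of AP-1, had 119 and 39.6 (chr14:75894206-75895402, fold 3.01, 2.16 to 4.23). *BATF3*, a factor of dendritic cells, had a weak region of 20 and 6.6 (fold 3.03, 1.32 to 7.56). *ATF7* had a region only elsewhere, and *ATF2*, *ATF3* and *BATF* had none.

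Taking 1 region per gene, the median promoter fold of the 23 members was 2.40 as parental over EIR, against 2.49 for the 4958 protein-coding genes with a promoter region. Both medians include EIR-higher regions, with ratios below 1. For parental-higher regions alone they were 2.41 over 22 members and 2.53 over 4654 protein-coding genes, which are of like size. The member regions differed more in tags: the 22 parental-higher ones held a median of 97.5 parental tags against 50 for all genes, and 11 of 22 (50%) held at least 100 tags against 14.8%. Per kb, these 22 held a median of 79.8 parental tags and 31.2 scaled EIR tags, and no such value is given for all genes. The 27 parental-higher promoter regions of members had a median length of 886 bp, against 752 bp for the 4668 of protein-coding genes. The part of region length in the difference in tags was not tested. Around 1 common fold, the folds of the members had a chi-square of 1.59 per degree of freedom (21 degrees), against 1.39 over all genes. Counting error alone gives about 1 in unselected regions. These regions were selected for a difference, so that the values describe the spread and do not measure an excess over counting error. Low counts enter the lists only with a high fold. The smallest fold among parental-higher regions of 13 to 24 tags was 2.52, and among those of at least 100 tags it was 1.49, so that folds of weak and strong regions are not on equal terms.

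**Figure D3:**
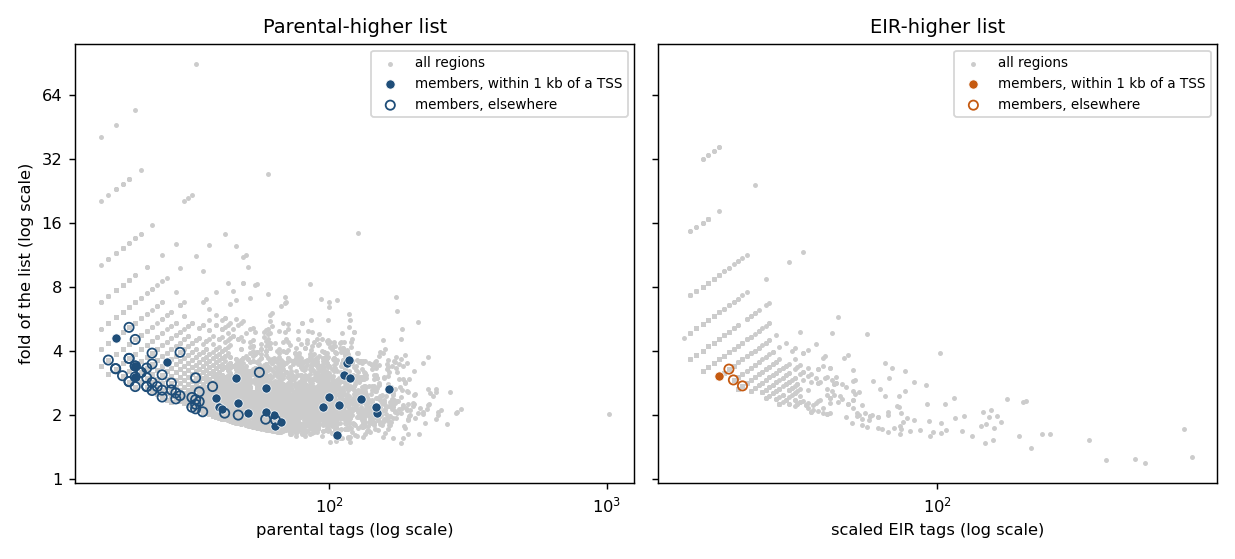
Fold of each region in the deposited lists against the tags of the library in which it is higher, both on log scales, for the parental-higher (left) and EIR-higher (right) lists. Grey points are all regions, filled points member regions within 1 kb of a TSS and open points member regions elsewhere. The lower edge falls from left to right because weak regions were listed only at a high fold. The 4 EIR-higher member regions all lie at the weak end, near 20 scaled tags, where most of that list lies.

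The regions at TSSs were mostly at the main promoters. The 22 members had 27 parental-higher promoter regions, of which 20 covered an annotated TSS. For 20 members a region lay within 1 kb of the canonical TSS, all but *WWTR1* and *VGLL4*, and for 13 it covered it. At 8 members a promoter region also lay within 1 kb of a TSS of another gene, mostly antisense or non-coding, and the genes of such a pair cannot be told apart.

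TEAD letters were more frequent in these promoter regions than in others. GGAATG, searched on both strands, was found in 18 of 27 member regions (66.7%) against 22.6% of the 4668 parental-higher promoter regions of protein-coding genes. In the central 500 bp, which takes out differences in length (median 886 against 752 bp), it was found in 44.4% against 13%. With TGGAATG, a longer form chosen after seeing the data, the shares were 25.9% and 6.19%. Of the Hippo-YAP members with such a region, 13 of 14 held GGAATG, all but *AJUBA*, and 3 of 8 AP-1 members did, *FOSL2*, *BATF3* and *JDP2*. TGACTCA was found in 5 of 27 regions (18.5%) against 6.79%, and TGACGTCA in 3 (11.1%) against 2.06%. In the central 500 bp these were 11.1% against 4.41% and 3.7% against 1.24%. The median GC content was 69.5% against 70.9%. Members such as *CCN1* and *CCN2* are in the pathway list because they are targets of TEAD factors, and a match of letters is not a bound site.

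Outside promoters, members had 53 regions, 50 of them parental-higher. Over all protein-coding genes such regions were also mostly parental-higher, 6344 against 1221 that were EIR-higher. The 50 member regions held 16 to 64 parental tags, with a median of 44 parental tags against 15.1 scaled EIR tags per kb. Their median fold was 2.84, against 2.88 over the 6344 regions of all genes. Of the 50, 26 lay in the gene body and 24 in the flanks, and 39, at 21 members, lay within 1 kb of no TSS. In these 50 regions GGAATG was found in 30%, TGACTCA in 20% and TGACGTCA in 0. The shares were 30.2%, 15.1% and 0.345% in 4344 parental-higher regions of all genes, a smaller set that leaves out regions within 1 kb of a TSS of any protein-coding gene. In the central 500 bp GGAATG was found in 30% against 25.8% and TGACTCA in 16% against 12.8%.

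*TEAD1* had the most, 7, of which 6 lay in introns 2 and 3 and 1 downstream, with 17 to 32 parental tags and folds of 2.42 to 3.92. *WWC2* had 6, 3 upstream and 3 in intron 1, with 19 to 29 tags and folds of 2.39 to 5.18. *WWTR1* had 4 in introns 2 and 3, with 17 to 33 tags and folds of 2.73 to 3.31. *FOSL2* had 4, with 19 to 33 tags and folds of 2.25 to 3.41, and the one 5096 bp from the nearest TSS of the gene holds both TGACTCA and GGAATG. *WWC1*, *JUNB* and *MAFG* had 3 each, 2 of them parental-higher. These held 18 and 25 parental tags at *WWC1* (folds 3.07 and 3.10), 20 and 59 at *JUNB* (3.03 and 1.92) and 33 and 56 at *MAFG* (2.37 and 3.18).

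The largest parental-higher folds elsewhere were at *WWC2*, upstream of the gene (19 parental tags against 3.7 scaled EIR tags, fold 5.18, 1.87 to 17.8), at *STK3*, near *OSR2* (20 against 4.4, fold 4.55, 1.76 to 13.8), and upstream of *SAV1* (29 against 7.3, fold 3.96, 1.87 to 9.10). The EIR-higher ones were 1290 bp upstream of *MAFG* (6 parental tags and 19.8 scaled EIR tags, fold 3.30, 1.33 to 9.77), in intron 1 of *WWC1* (7 and 20.5, fold 2.93, 1.25 to 7.95) and upstream of *JUNB* (8 and 22.0, fold 2.75, 1.23 to 6.94). All 4 EIR-higher regions of members were weak, as were most of that list, with 1753 of 2104 regions at 13 to 24 scaled tags. Each of the 4 genes also had a parental-higher region. The region near *JUNB* covers the TSS of *HOOK2*, a neighbour.

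Regions in the flanks can belong to a neighbour. Of the 24 parental-higher flank regions, 7 lay within 1 kb of a TSS of another gene, such as those of *MAFG* at *PCYT2* and *SIRT7*, and *MAFK* at *TMEM184A*. The region of *MOB1B* lies inside its annotated body and covers a TSS of *DCK*. The 1-kb limit put *WWC1* (641 bp) and *AMOTL2* (556 bp) just inside. It left *VGLL4* (1122 bp), *JUNB* (1146 bp), *ATF7* (1211 bp, 34 parental tags against 13.2 scaled EIR tags, fold 2.58) and the EIR-higher region of *MAFG* (1290 bp) just outside.

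**Figure D4:**
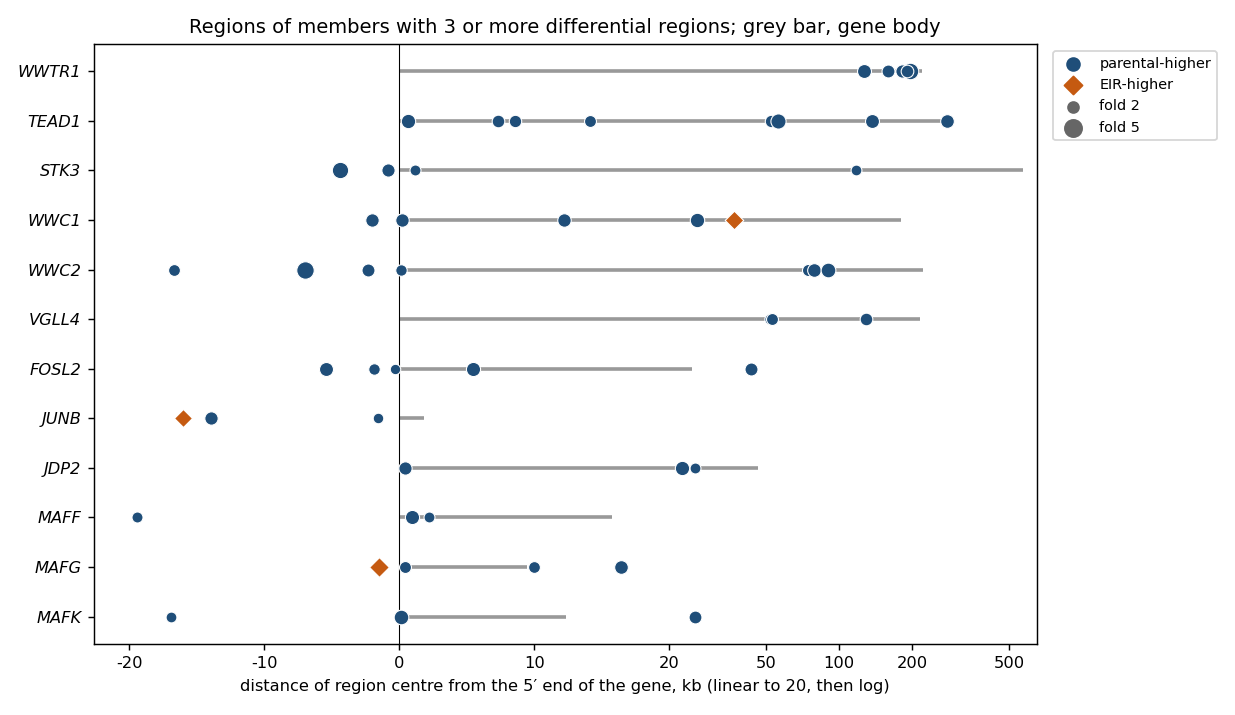
Position of the regions of the 12 members with 3 or more, as the distance of the region centre from the 5′ end of the gene in kb, linear to 20 kb and log beyond. Grey bars are gene bodies, circles parental-higher and diamonds EIR-higher regions, and the area of a symbol is proportional to the fold. The regions of *WWTR1* and *VGLL4* lie inside the gene and none at its 5′ end, while *TEAD1*, *WWC1* and *WWC2* have a promoter region and further ones inside.

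The 11 members without a region were *TEAD2*, *STK4*, *AMOT*, *VGLL3*, *ANKRD1*, *FOS*, *FOSB*, *JUN*, *ATF2*, *ATF3* and *BATF*. The nearest region was 25.5 kb away for *JUN* (22 parental tags against 3.7 scaled EIR tags, fold 6), 31.2 kb for *FOSB*, at the TSS of *VASP*, and 35.5 kb for *ANKRD1* (4 parental tags and 18.3 scaled EIR tags). It was 50.9 kb for *ATF3*, 58.3 kb for *FOS*, 68.4 kb for *BATF* and 80.3 kb for *STK4*. For *TEAD2*, *ATF2* and *AMOT* it was 190 to 672 kb away, and for *VGLL3* 5.11 Mb.

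Other genes of the same pathways were counted over lists that were, like the members, set with earlier results of these data known. Of all protein-coding genes, 23.2% had a parental-higher promoter region, 1.96% an EIR-higher one and 56.4% no region. The lists had more length and TSSs per gene. In the order given here, their medians were 106, 52.7 and 46.2 kb and 8, 7 and 8 TSSs, against 27.2 kb and 5. Of 28 further regulators of Hippo and YAP, 15 had a parental-higher promoter region, none had an EIR-higher one and 7 had no region. Of 15 further YAP target genes the numbers were 11, 0 and 3. Of 26 further bZIP factors and kinases of AP-1, 16 had a parental-higher promoter region, 2 (*MAF* and *CREM*) an EIR-higher one and 4 had no region. The largest parental over EIR promoter folds were at *WWC3*, a paralog of *WWC1* (69 parental tags against 10.3 scaled EIR tags, fold 6.72, 3.75 to 12.9), *MAFA* (119 against 21.3, fold 5.60, 3.71 to 8.72) and *CREB5* (18 against 3.7, fold 4.91, 1.76 to 16.9). The smallest were at *MAF*, which was EIR-higher (6 against 19.8, ratio 0.303, 0.102 to 0.750), *GADD45A* (182 against 122.4, 1.49, 1.20 to 1.84) and *RASSF2* (66 against 39.6, 1.67, 1.15 to 2.44). *CREM* had regions of both directions at different TSSs, with 115 parental tags against 56.4 scaled EIR tags at one and 5 against 16.9 at the other.

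The counts rest on the scaling of the libraries by total tags. If EIR tags counted 1.5 times more, 12 of the 22 members would keep a parental-higher promoter region past the Poisson threshold. Of single regions in the whole parental-higher list, 25.2% would. These shares are not on equal terms, since the first counts genes and the second counts regions at promoters and elsewhere. At least 100 parental tags were held by 6.53% of that list and by 50% of the 22 member promoter regions. For parental-higher promoter regions of all protein-coding genes, with 1 per gene, it was 14.8%. The share of all genes that would keep a promoter region under this scaling is not given. These 12 were *CCN1*, *JDP2*, *JUND*, *MAFG*, *MAFK*, *STK3*, *TEAD1*, *TEAD4*, *VGLL4*, *WWC1*, *WWC2* and *WWTR1*. *STK3* stayed through its region near *OSR2*, which lies outside the gene body, and not through the one at its canonical TSS. *WWTR1* stayed through its weak region in intron 4, with 17 parental tags. Those of *YAP1*, *CCN2*, *LATS2*, *FOSL1* and *FOSL2* were among the 10 lost.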

How the data were processed

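SMARCA4 ChIP-seq regions of 2 libraries were used, 1 per condition, grouped by the cell line given in the sample labels. Per the labels and the Methods, the authors aligned reads with Bowtie 0.12.9 to hg19 and used HOMER (findPeaks, histone style) for the regions, each library in turn being the control. The deposited parental list gives tag counts of the parental library, while the EIR tags in it are a signal scaled by the authors to the parental total, and the EIR list is built likewise. The deposited fold is the ratio of these values, and the deposited p-value is HOMER's Poisson p-value. The findPeaks score, the clonal fold change and the region size column were not used.

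From these, the value of 1 EIR tag (0.733) was read off the step size in the scaled values, of which 99.2% of 126 distinct ones were whole multiples within 0.05, and whole tags were recovered. Recomputed folds were within 2% of the deposited ones for 99.6% of regions. Regions were joined to TSSs of GENCODE release 44 on GRCh37 by the nearest edge. Motif letters were searched on both strands of the GRCh37 reference. The statistics were tested on simulated data. The members and the lists were chosen with earlier results of these data known. Every member is named. For members with a promoter region the tags and fold are given, for regions elsewhere the 3 largest folds in each direction and members with at least 3 of them, and for other pathway genes the 3 largest and 3 smallest promoter folds. Among other genes of the pathways, *CREM* was named after its values were seen. Alternatives were other windows, flanks, transcript sets, thresholds, scalings and motif windows. Software was pysam 0.24.0, scipy 1.17.1, pandas 2.3.3, numpy 2.4.6 and matplotlib 3.10.9 under Python 3.11.15.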

Additional observations from a re-analysis of the deposited data

How the results depend on the processing

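No paired analysis was possible because each condition has 1 library, and for the same reason no replicate could be left out. When EIR tags were scaled 1.5 times higher, the members with a parental-higher region went from 22 to 12 at promoters and from 27 to 5 elsewhere, the median promoter fold from 2.40 to 1.60, and, in an alternative chosen after seeing the data, the other pathway genes from 42 to 14. That scaling kept 25.2% of all parental-higher regions, of any place and strength. With EIR tags scaled 1.5 times lower the median was 3.60 and the members with an EIR-higher region were 0 at promoters and 0 elsewhere. Of all EIR-higher regions, 9.7% stayed. With a fold of at least 4 the parental-higher counts were 1 at promoters and 2 elsewhere, and the EIR-higher counts 0 and 0. Of the whole lists, 11.9% of parental-higher and 36.4% of EIR-higher regions stayed. With a HOMER *P* value of at most 1e-06 the EIR-higher counts were 0 and 0, and the parental-higher counts 16 at promoters and 8 elsewhere. The members lost at promoters were *AJUBA*, *BATF3*, *FOSL1*, *FOSL2*, *MAFF* and *TEAD3*. At that threshold, 45.8% of all parental-higher and 32.2% of all EIR-higher regions stayed. *AMOTL2* as the single member with an EIR-higher promoter region became 0 with 500 bp, with 5′ ends or with protein-coding transcripts, and 2 members with 5 kb. Without the flank, 14 members had a parental-higher and 1 an EIR-higher region elsewhere, and with a flank of 50 kb 5 had an EIR-higher one. The share of promoter regions with TEAD letters was 44.4% in the central 500 bp and 25.9% with 7 letters, an alternative chosen after seeing the data, and that with the CRE was 3.7%. Because the lists hold only called regions, an alternative can remove regions but not add uncalled ones. The weakest regions rest on under 10 tags in 1 library.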

Other observations

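In 4 of the 27 parental-higher promoter regions of members (14.8%), those of *CCN2*, *TEAD3*, *TEAD4* and *WWTR1*, 2 matches of GGAATG, on either strand, lay with 3 bases between them. Among all 4668 parental-higher promoter regions of protein-coding genes there were 5 such regions (0.107%), the other being at *NINJ2*. In 3 of the 4 member regions both matches were on the same strand, and at *WWTR1* they faced each other. At least 2 matches at any spacing were found in 9 of the 27 member regions (33.3%) and in 4.2% of all. The spacing was looked at after the matches had been seen, it was not tested, and the genes encode TAZ, TEAD factors and a target of YAP. The parental tags and folds of these 4 regions were 47 and 2.29 at *CCN2*, 41 and 2.15 at *TEAD3*, 164 and 2.66 at *TEAD4*, and 40 and 2.18 at *WWTR1*. The folds lie within the range of the other members.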
